A study of Mus musculus with 4 samples.

Results

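The genes followed here act in meiotic crossover formation, among them the ZMM genes, and their ribosome-protected fragments (RPFs) were compared between control and *Eef1g*-cKO spermatocytes in leptotene and zygotene. The 9 genes chosen were *Msh4*, *Msh5*, *Hfm1*, *Tex11*, *Rnf212*, *Ccnb1ip1*, *Mlh3*, *Exo1* and *Mus81*, each looked up by its symbol in the deposited table. Of these, 8 had a row among the 11598 genes of the table and all 8 were tested. *Rnf212*, which encodes a RING-finger factor that marks future crossover sites, had no row and was not analysed here.

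In meiosis, programmed DNA breaks are repaired on the homologous chromosome, and a small part of these repair events mature into crossovers that hold homologs together until they segregate. Most mouse crossovers are of class I and depend on the ZMM proteins. MSH4 and MSH5 form a clamp on recombination intermediates, HFM1 is a DNA helicase, TEX11 is an X-linked scaffold, and the RING-finger proteins RNF212 and CCNB1IP1 (also called HEI10) reduce the many early foci to few final sites. MLH3 then acts in cutting the joint molecules, EXO1 supports this step, and MUS81 with EME1 is the nuclease of the minor class II route.

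Cells were sorted by DNA content from testes of mice at 12 dpp (days postpartum), with 2 libraries of each genotype. The control libraries carry the label wild type and were littermates in the study's methods. In *Eef1g*-cKO mice, floxed *Eef1g*, the gene of the gamma subunit of translation elongation factor eEF1, was deleted by Stra8-GFPCre, a recombinase made in male germ cells from the differentiating spermatogonium onward, so somatic cells of the testis keep the gene. The strain in the methods is C57BL/6J. An RPF is the stretch of mRNA, here size-selected to 26 to 34 nt, that a ribosome shields from RNase. Its abundance reflects mRNA amount and ribosomes per mRNA together, and in sorted bulk cells, fewer cells of a type and less RNA per cell cannot be told apart.

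The control libraries held 2479504 and 1384282 reads on genes and the *Eef1g*-cKO libraries 223906 and 407979, so the control mean was 6.11-fold higher. A count of 0 allows up to 3 reads, which is 1.21 and 2.17 reads per 1000000 (RPM) in the controls and 13.4 and 7.35 RPM in the *Eef1g*-cKO libraries. *Eef1g* itself had 107 and 58 reads in the controls and 0 and 4 in *Eef1g*-cKO (27.6 and 26.8 against 0 and 6.26 FPKM, which is reads per kilobase of gene per 1000000 reads on genes). Its log2 fold change was -3.39 (SE 0.91, adjusted p = 0.0731 in limma), so the targeted gene was lower in both *Eef1g*-cKO libraries without passing the adjusted threshold. It is not known here where in the gene the 4 reads lie.

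Because MSH4 and MSH5 are relatives of the same MutS family, their mRNAs were compared at the ATP-binding P-loop, a conserved stretch of MutS proteins, to show how far a short footprint can tell them apart. Both stretches are coding exon sequence of the minus strand of GRCm38 (GENCODE release M21), printed 5′ to 3′, and capitals mark bases that are the same in both genes. The *Msh4* stretch lies in exon 15 at chr3:153869592-153869651 (codons 696 to 715). The *Msh5* stretch joins exons 18 and 19 between the ends chr17:35030756-35031204, with the intron left out (codons 585 to 604).
Msh4: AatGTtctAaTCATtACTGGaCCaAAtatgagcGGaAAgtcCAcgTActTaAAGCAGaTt
Msh5: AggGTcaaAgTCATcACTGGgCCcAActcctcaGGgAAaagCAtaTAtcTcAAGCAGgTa
Of the 60 bases, 33 are the same, and the longest run without a difference is 6 bases. Over the whole coding sequences the longest shared run is 12 bases, shorter than the smallest footprint of 26 nt. *Msh4* had 1 of 2852 coding stretches of 26 bases (0.0351%) that occurs again elsewhere in the genome, and *Msh5*, *Hfm1*, *Tex11*, *Mlh3* and *Exo1* had none. For *Ccnb1ip1* the number was 53 of 806 (6.58%) and for *Mus81* 213 of 1631 (13.1%), so reads of these 2 genes may be shared with other loci in a way the table does not show. No gene that overlaps one of the 8 has a row in the table.

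The ZMM genes *Msh4* and *Hfm1* increased in *Eef1g*-cKO by about 3-fold, *Ccnb1ip1* had a similar fold with wider error, and *Msh5* and *Tex11* had smaller positive values. *Mlh3*, *Exo1* and *Mus81*, which act when joint molecules are cut, had values near 0 or below. A gene was called when limma on log2(FPKM + 1) gave an adjusted p under 0.05 together with a log2 fold change beyond 1 in either direction, and changes are on that scale unless another is named. By this rule 2 of the 8 genes increased, against 2.87% of the 10475 genes tested, and 0 decreased, against 4.97%. At an unadjusted p under 0.05 with the same fold, 3 of the 8 increased, against 7.32%, and again 0 decreased, against 16.3%. In edgeR on the recovered reads 3 of 7 tested increased, against 8.75%, and 0 decreased, against 11.2%, and in DESeq2 2 of 8 increased, against 5.94%, and 0 decreased, against 5.34%. In 6 of the 8 genes both *Eef1g*-cKO values exceeded both control values, as in 24.6% of all genes tested, and in 1 gene both were lower, as in 37.7%. The median log2 fold change of the 8 genes was 0.61, and that of all genes tested was -0.23.

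**Figure D1:**
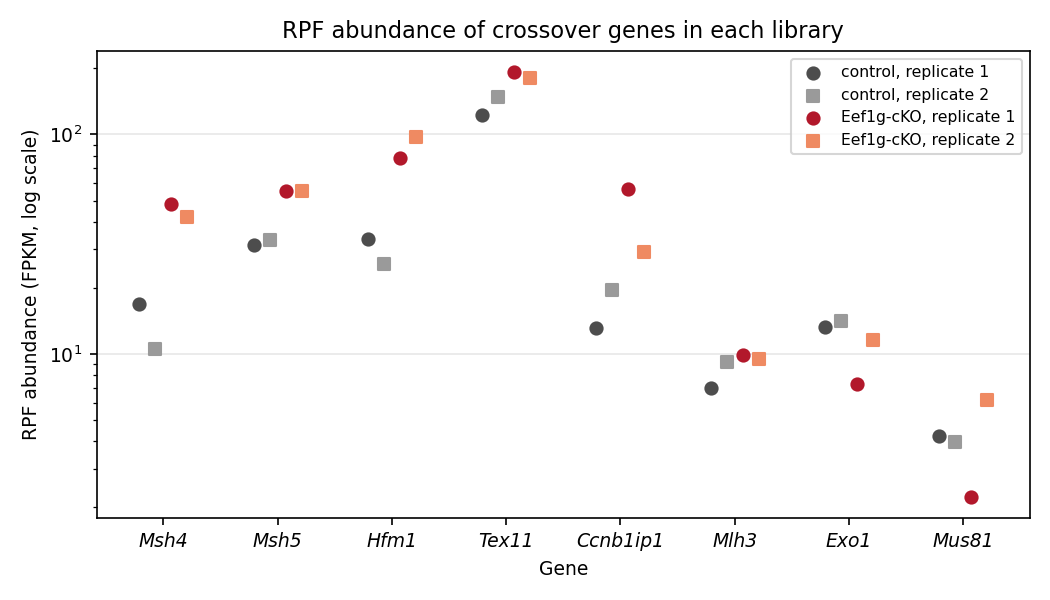
RPF abundance (FPKM, log scale) of the 8 crossover genes in each of the 2 control (gray) and 2 *Eef1g*-cKO (red, orange) libraries, with circles for replicate 1 and squares for replicate 2. Both *Eef1g*-cKO points of *Msh4*, *Msh5*, *Hfm1*, *Tex11*, *Ccnb1ip1* and *Mlh3* lie above both control points, those of *Exo1* lie below, and those of *Mus81* lie on either side.

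The partners of the MutS-related clamp were read first. *Msh4* lies on chromosome 3 (153857141 to 153906138, minus strand, GRCm38.p6 in RefSeq) with a coding length of 2877 bases. Its RPF abundance was 17.0 and 10.5 FPKM in the controls (156 and 54 reads) and 48.2 and 42.3 FPKM in *Eef1g*-cKO (40 and 64 reads). The groups did not overlap, and the lower *Eef1g*-cKO library was above the higher control library by more than the distance between the control libraries. The means were 13.7 ± 4.56 and 45.2 ± 4.15 FPKM (SD, n = 2 each), with a log2 fold change of 1.68 (SE 0.31, limma adjusted p = 0.0394). On pooled RPM the fold was 3.03, with an exact 95% interval of 2.37 to 3.85 that covers counting error only.

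*Msh5*, on chromosome 17 (35028605 to 35046997, minus strand), encodes the partner that MSH4 needs to form the clamp. It had 31.2 and 33.2 FPKM in the controls (224 and 133 reads) and 55.6 and 55.1 FPKM in *Eef1g*-cKO (36 and 65 reads). The means were 32.2 ± 1.40 and 55.3 ± 0.357 FPKM (SD, n = 2 each), and the groups did not overlap. In *Eef1g*-cKO the SD was smaller than 1 read, which is 1.54 and 0.847 FPKM, so counting error exceeds the spread seen. On pooled RPM the fold was 1.73 (exact 95% counting interval 1.37 to 2.16). The log2 fold change of 0.76 (SE 0.22, 95% interval 0.23 to 1.30) did not reach the fold threshold, and the limma adjusted p was 0.0815. The adjusted p passed 0.05 in edgeR (0.0192, log2 fold change 0.86) and in limma with each library centred on its median (0.0499, log2 fold change 0.98), again without reaching the fold.

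The ratio of *Msh4* to *Msh5*, taken on FPKM + 1, was 0.558 and 0.337 in the controls and 0.869 and 0.772 in *Eef1g*-cKO. The levels of the 2 partners were thus nearer to each other in both *Eef1g*-cKO libraries than in either control library. The log2 ratio differed by 0.92 (exact two-sided permutation p = 0.333, the smallest that 2 against 2 libraries can give).

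*Hfm1*, the DNA helicase gene on chromosome 5 (106840193 to 106926712, minus strand, coding length 4305 bases), had 33.4 and 25.7 FPKM in the controls (440 and 189 reads) and 78.2 and 97.4 FPKM in *Eef1g*-cKO (93 and 211 reads). It was the best counted of the genes that increased, and its groups did not overlap. The means were 29.6 ± 5.45 and 87.8 ± 13.6 FPKM (SD, n = 2 each), with a log2 fold change of 1.54 (SE 0.25, limma adjusted p = 0.0347). On pooled RPM the fold was 2.96 (exact 95% counting interval 2.57 to 3.39).

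The calls of *Msh4* and *Hfm1* did not hold under every setting. Without control replicate 1, or without control replicate 2, where the remaining control library is assumed to vary like the *Eef1g*-cKO pair, no gene of the whole table was called at the adjusted p, and *Msh4* had log2 fold changes of 2.00 and 1.36 (limma adjusted p = 0.168 and 0.253) and *Hfm1* of 1.72 and 1.36 (limma adjusted p = 0.199 and 0.272). Without *Eef1g*-cKO replicate 1 or 2, where the spread comes from the control pair, both genes were called (limma adjusted p = 0.0274 and 0.0118 for *Msh4* and 0.0124 and 0.0230 for *Hfm1*). Neither was called with a pseudocount of 0.1 FPKM or with a prior variance without a trend, while edgeR and DESeq2 called both. Both genes are also among those that the study had singled out on these same libraries, so their direction is not independent evidence. By Western blot the paper reports less MSH4 protein in *Eef1g*-cKO testes of the age used here. It also reports fewer MSH4 foci in zygotene spermatocytes of adult *Eef1g*-cKO mice. Meiotic genes were not overrepresented in the paper among genes whose RPFs per mRNA changed. More RPFs on a gene are thus not read here as more protein.

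*Tex11* encodes the X-linked scaffold whose loss lowers crossover number in mouse spermatocytes, and it lies at positions 100838648 to 101059639 (minus strand). It was the most abundant of the 8, with 123 and 148 FPKM in the controls (1093 and 737 reads) and 193 and 181 FPKM in *Eef1g*-cKO (155 and 265 reads). The 2 *Eef1g*-cKO values exceeded both control values, and replicates of each genotype were close. The log2 fold change was 0.47 (SE 0.20, 95% interval -0.04 to 0.97, limma adjusted p = 0.187), so no change was called. By Western blot the paper reports less TEX11 protein in *Eef1g*-cKO testes of the age used here.

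The ratio of *Hfm1* to *Tex11* (FPKM + 1) was 0.278 and 0.179 in the controls and 0.409 and 0.541 in *Eef1g*-cKO, a difference of 1.08 on the log2 scale (exact permutation p = 0.333). *Tex11* held 48.4% and 54.9% of all reads on the 8 genes in the controls and 42.5% and 39.3% in *Eef1g*-cKO. *Hfm1* held 19.5% and 14.1% in the controls and 25.5% and 31.3% in *Eef1g*-cKO.

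*Ccnb1ip1*, on chromosome 14 (50789249 to 50795728, minus strand), encodes the RING-finger protein HEI10 and has the shortest coding sequence of the 8, with 831 bases. It had 13.1 and 19.6 FPKM in the controls (49 and 41 reads) and 56.3 and 29.3 FPKM in *Eef1g*-cKO (19 and 18 reads). The groups did not overlap, but the 2 *Eef1g*-cKO libraries were far from each other. The log2 fold change was 1.29 (SE 0.40, 95% interval 0.31 to 2.27, limma adjusted p = 0.0965), which passed the unadjusted threshold alone. In edgeR the adjusted p was 0.0250, over 8056 genes tested, and in DESeq2 it was 0.0929, over 8450 genes. *Eef1g*-cKO replicate 1 weighed heavily here, since the log2 fold change was 0.83 without it and 1.75 (limma adjusted p = 0.0105) without replicate 2.

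**Figure D2:**
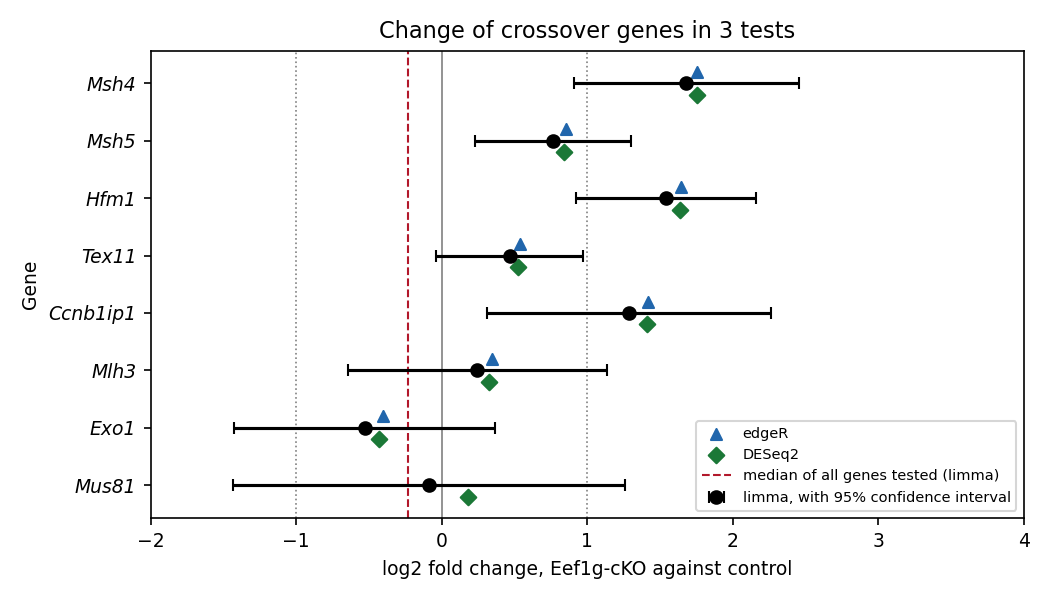
Log2 fold change of each crossover gene in *Eef1g*-cKO against control (x axis) from limma with its 95% confidence interval (black), edgeR (blue triangles) and DESeq2 (green diamonds), with dotted lines at -1 and 1 and a dashed line at the median of all genes tested (-0.23). The intervals of *Msh4*, *Hfm1*, *Ccnb1ip1* and *Msh5* lie above 0, and *Mus81* has no edgeR point because it fell under the count filter of that test.

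Among the genes of the late steps, *Mlh3* and *Mus81* had the lowest control levels of all the crossover genes. *Exo1* was level with *Msh4* in control on FPKM. *Mlh3*, on chromosome 12 (85234466 to 85270647, minus strand), encodes the nuclease subunit that cuts class I joint molecules. It had 6.98 and 9.18 FPKM in the controls (94 and 69 reads) and 9.87 and 9.48 FPKM in *Eef1g*-cKO (12 and 21 reads). The groups were separated only narrowly, and the log2 fold change of 0.24 (SE 0.36) had a 95% interval of -0.64 to 1.13 (limma adjusted p = 0.675).

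*Exo1*, the exonuclease gene on chromosome 1 (175880768 to 175911396, plus strand), was the one gene of the 8 whose *Eef1g*-cKO values were both under the control values. It had 13.3 and 14.2 FPKM in the controls (182 and 108 reads) and 7.30 and 11.6 FPKM in *Eef1g*-cKO (9 and 26 reads). The log2 fold change was -0.53 (SE 0.36, 95% interval -1.42 to 0.37, limma adjusted p = 0.363), and no change was called. The ratio of *Exo1* to *Mlh3* (FPKM + 1) was 1.79 and 1.49 in the controls and 0.763 and 1.20 in *Eef1g*-cKO, a log2 difference of -0.77 (exact permutation p = 0.333).

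*Mus81*, on chromosome 19 (5482561 to 5488389, minus strand), encodes the class II nuclease and was the least abundant. It had 4.25 and 3.99 FPKM in the controls (21 and 11 reads) and 2.24 and 6.15 FPKM in *Eef1g*-cKO (1 and 5 reads). The *Eef1g*-cKO libraries lay on either side of control, and the log2 fold change of -0.09 (SE 0.55) had a 95% interval of -1.43 to 1.26 (limma adjusted p = 0.926). At 1 and 5 reads, a change of 2-fold in either direction was not detectable. Its sign was not stable, at 0.13 with each library centred on its median and 0.48 without *Eef1g*-cKO replicate 1. The ratio to *Eme1*, the partner gene, was 0.286 and 0.365 in the controls and 0.170 and 0.546 in *Eef1g*-cKO, with overlapping groups (exact permutation p = 1).

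The order of levels changed in the middle of the range. In control, mean FPKM ran from *Tex11* (135) through *Msh5* (32.2), *Hfm1* (29.6), *Ccnb1ip1* (16.4), *Exo1* (13.8), *Msh4* (13.7) and *Mlh3* (8.08) to *Mus81* (4.12). *Msh5* and *Hfm1* overlapped between libraries, as did neighbours among *Ccnb1ip1*, *Exo1* and *Msh4*. In *Eef1g*-cKO the order was *Tex11* (187), *Hfm1* (87.8), *Msh5* (55.3), *Msh4* (45.2), *Ccnb1ip1* (42.8), *Mlh3* (9.68), *Exo1* (9.44) and *Mus81* (4.20), with overlap between *Msh4* and *Ccnb1ip1* and between *Mlh3* and *Exo1*. *Msh4* was thus level with *Exo1* in control and above it in both *Eef1g*-cKO libraries.

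RPFs fall mainly on coding sequence, while FPKM divides by the whole gene model, so levels were also set as RPM per kilobase of coding sequence. On that scale control had 171 for *Tex11*, 37.3 for *Msh5*, 36.5 for *Hfm1*, 30.1 for *Exo1*, 29.7 for *Ccnb1ip1*, 17.7 for *Msh4*, 10.1 for *Mlh3* and 4.96 for *Mus81*. *Exo1* stood clearly above *Msh4* on this scale in control (30.1 ± 1.30 against 17.7 ± 5.88, SD, n = 2 each), where FPKM had them level. In *Eef1g*-cKO the values were 236 for *Tex11*, 108 for *Hfm1*, 77.6 for *Ccnb1ip1*, 64.0 for *Msh5*, 58.3 for *Msh4*, 20.7 for *Exo1*, 12.1 for *Mlh3* and 5.05 for *Mus81*.

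The genes with the most similar values to *Msh4* over the 4 libraries, by Euclidean distance of log2(FPKM + 1), were *Abca5* (distance 0.21), *Tmem147* (0.25) and *Gkap1* (0.29). For *Msh5* they were *Mad1l1* (0.13), *Swt1* (0.17) and *Mettl1* (0.19). With 4 libraries in 2 genotypes this likeness rests on level and on the difference between genotypes.

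Other genes of class I crossover formation were read from a list of 8, of which 4 had a row and were tested. In limma 0 of the 4 were called in either direction at adjusted or unadjusted p, as were 0 in edgeR and DESeq2. The limma shares over all genes were 2.87% increased and 4.97% decreased at the adjusted p, and 7.32% and 16.3% at the unadjusted p. They were 8.75% and 11.2% in edgeR and 5.94% and 5.34% in DESeq2. A list of 4 genes with 0 calls cannot be told apart from these shares. The median log2 fold change was 0.45, with 3 positive values and 1 negative. *Mcmdc2*, an MCM-like gene needed for repair on the homolog, had the highest value (0.75, adjusted p = 0.328). *Prr19*, whose product acts with CNTD1 in crossover maturation, had the lowest (-0.59, adjusted p = 0.238). For *Cdk2*, whose kinase sits at late crossover sites, the value was 0.53 (adjusted p = 0.179).

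Mismatch repair genes of dividing cells, the relatives of *Msh4*, *Msh5* and *Mlh3*, had a median log2 fold change of -0.64 over 4 genes. At the adjusted p 0 were called in limma and in DESeq2 and 1, *Pms1*, decreased in edgeR, against 11.2% of all genes tested there. At the unadjusted p in limma 1 of the 4, *Msh3*, increased and 1, *Pms1*, decreased, against 7.32% and 16.3%. Counts this small cannot be told apart from these shares. *Msh3* had 4.91 and 3.48 FPKM in the controls and 10.2 and 10.6 FPKM in *Eef1g*-cKO (log2 fold change 1.14, limma adjusted p = 0.119). *Pms1* had 13.4 and 12.9 FPKM in the controls and 5.89 and 1.62 FPKM in *Eef1g*-cKO (log2 fold change -1.74, limma adjusted p = 0.103).

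Nuclease and helicase genes that resolve or dissolve joint molecules, the group around *Mus81*, numbered 17 with a row, of which 14 passed the filter on low values (*Slx1b*, *Rmi1* and *Rmi2* did not). In limma 0 of the 14 were called in either direction at adjusted or unadjusted p. The limma shares over all genes were 2.87% increased and 4.97% decreased at the adjusted p, and 7.32% and 16.3% at the unadjusted p. In edgeR 0 of 12 were called, against 8.75% and 11.2%, and in DESeq2 0 of 13, against 5.94% and 5.34%. The median log2 fold change was -0.23, the same as over all genes tested. For 7 genes both *Eef1g*-cKO values were under both control values (50.0% of the 14, against 37.7% of all genes tested), and for 0 were both above (against 24.6%). *Eme2* had the highest value (1.05, adjusted p = 0.448) from 12, 0, 2 and 1 reads, and *Fancm*, a DNA translocase gene, the lowest (-0.62, adjusted p = 0.379). *Eme1*, the partner gene of *Mus81*, had a value of 0.00 (adjusted p = 0.995).

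**Figure D3:**
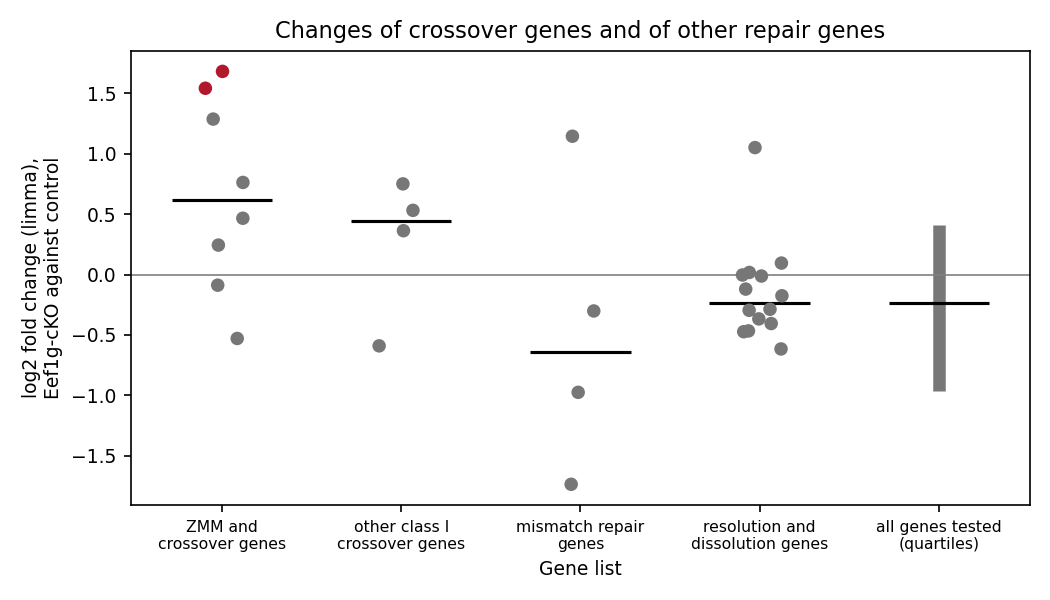
Log2 fold change in *Eef1g*-cKO against control (limma, y axis) for each tested gene of 4 lists, with genes called at the adjusted p in red, list medians as black lines and, at the right, the quartiles of all 10475 genes tested. The crossover genes have a median of 0.61, and the other lists have medians of 0.45, -0.64 and -0.23.

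Markers of cell types also differed between the genotypes, in both directions. The 15 leptotene/zygotene markers, all with a row, summed to 7667 and 6969 RPM in the controls and 17213 and 16141 in *Eef1g*-cKO. At the adjusted p in limma 7 increased, against 2.87% of all genes tested, and 1 decreased, against 4.97% (*Stra8*, the meiotic entry gene, -1.21, adjusted p = 0.0379). In edgeR and in DESeq2 8 increased, against 8.75% and 5.94%, and 1 decreased, against 11.2% and 5.34%. The most abundant was *Tex101*, with 4796 and 3342 reads in the controls and 1433 and 2271 in *Eef1g*-cKO. Some of these markers, such as *Hormad1*, *Dmc1* and *Meiob*, are among the genes the study had singled out on these libraries. The 8 crossover genes summed to 911 and 969 RPM in the controls and 1630 and 1654 in *Eef1g*-cKO, and to 671 and 794 against 1036 and 980 without *Msh4* and *Hfm1*.

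Set against the leptotene/zygotene markers, a ratio chosen after the values were seen, the summed reads of the 8 crossover genes were lower in both *Eef1g*-cKO libraries. They had 119 and 139 reads per 1000 marker reads in the controls and 94.7 and 103 in *Eef1g*-cKO. *Tex11* had 57.5 and 76.4 in the controls and 40.2 in both *Eef1g*-cKO libraries. Without *Tex11* the sum was 61.3 and 62.7 in the controls and 54.5 and 62.3 in *Eef1g*-cKO, and the groups overlapped. *Msh4* had 8.21 and 5.60 in the controls and 10.4 and 9.72 in *Eef1g*-cKO, and *Hfm1* had 23.1 and 19.6 in the controls and 24.1 and 32.0 in *Eef1g*-cKO. The values of these 2 genes stayed above control in both *Eef1g*-cKO libraries on this scale, though *Hfm1* replicate 1 by little. *Msh4* rests on 40 and 64 reads in *Eef1g*-cKO, and no counting interval was set on this ratio. Whether either gene rose more than the markers was not tested.

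Spermatogonial markers summed to 2619 and 3174 RPM in the controls and 487 and 463 in *Eef1g*-cKO. At the adjusted p 5 of 10 decreased in limma, against 4.97% of all genes tested. In edgeR and in DESeq2 6 of 7 decreased, against 11.2% and 5.34%. *Uchl1* was the most abundant (log2 fold change -3.04), with *Gfra1* and *Nanos3* at 0 reads in *Eef1g*-cKO replicate 1 and *Etv5* at 0 in replicate 2. Pachytene markers, 5 of 10 with a row, summed to 806 and 617 in the controls and 1746 and 1799 in *Eef1g*-cKO. At the adjusted p 1 of 5 increased, *Hist1h1t*, the testis linker histone gene (2.04, limma adjusted p = 0.0236), and 0 decreased, in limma, edgeR and DESeq2 alike. Over all genes tested in limma the shares were 2.87% and 4.97%. Most of this sum lay in *Hist1h1t* and *Hspa2* (0.79, limma adjusted p = 0.0854). *Piwil1* had 80 and 16 reads in the controls against 1 and 2 in *Eef1g*-cKO (-1.46, limma adjusted p = 0.161), a decrease at the unadjusted p. *Tbpl1* overlapped (-0.04). In adult *Eef1g*-cKO testes the paper detected neither pachytene spermatocytes nor the protein of *Hist1h1t* in spermatocytes. It also reports less HSPA2 protein in *Eef1g*-cKO testes of the age used here. The sum thus counts RPFs on these genes, and whether it reflects pachytene cells was not tested. Sertoli cell markers, 8 of 10 with a row, summed to 1204 and 301 in the controls and 304 and 201 in *Eef1g*-cKO, with *Gata4* at 0 reads in both *Eef1g*-cKO libraries and *Wt1* at 0 in replicate 1. *Clu* alone had 2052 reads in control replicate 1 and 241 in control replicate 2, so that control replicate 1 stood apart in these genes. Peritubular markers, 3 of 5 with a row, summed to 154 and 109 in the controls and 26.8 and 66.2 in *Eef1g*-cKO, with *Myh11* at 0 in *Eef1g*-cKO replicate 1. Leydig markers (3 of 6 with a row) and spermatid markers (3 of 8) were between 0 and 28.9 RPM in every library, with *Cyp11a1* and *Prm2* at 0 reads in control replicate 1 and in both *Eef1g*-cKO libraries, *Hsd3b1* at 0 in both *Eef1g*-cKO libraries and *Tnp1* and *Spaca1* at 0 in *Eef1g*-cKO replicate 1. No macrophage marker had a row. A count of 0 allows up to 13.4 and 7.35 RPM in the *Eef1g*-cKO libraries. Some markers at 0 were also low in control, such as *Gata4* (27 and 6 reads) and *Nanos3* (6 and 5 reads). These zeros do not show absence. The part of the marker shifts in the values of the crossover genes was not tested.

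**Figure D4:**
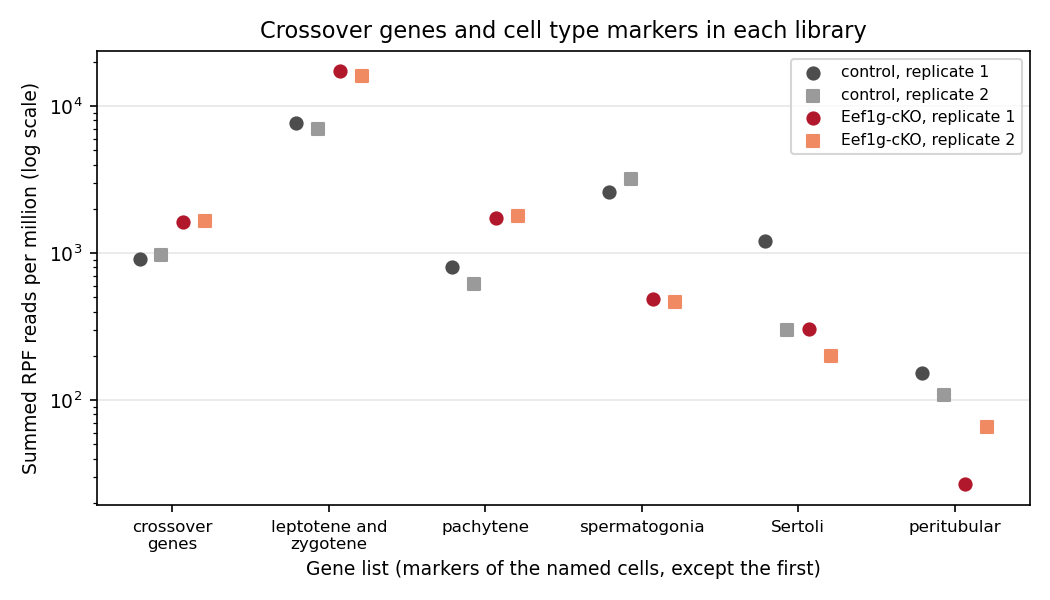
Summed RPF reads per 1000000 (log scale) of the 8 crossover genes and of 5 lists of cell type markers in each library, with colours and symbols by genotype and replicate. The sums of crossover, leptotene/zygotene and pachytene genes are higher in both *Eef1g*-cKO libraries (the last mostly from *Hist1h1t* and *Hspa2*), spermatogonial and peritubular markers are lower, and Sertoli markers are highest in control replicate 1.

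The GC content at the last base of each codon was below the median of all genes in 6 of the 8 crossover genes. It was 34.7% in *Hfm1* (percentile 1.55 of the 11194 genes with a coding sequence), 38.4% in *Tex11* (4.31), 40.9% in *Mlh3* (7.22), 48.4% in *Ccnb1ip1* (19.6), 50.1% in *Msh4* (22.8) and 53.7% in *Exo1* (31.4). *Mus81* (65.9%) and *Msh5* (66.2%) were above the median of all genes, 60.5%. Over the table, this GC content moved with the outcome, with a median of 54.8% in 293 genes that increased at the adjusted p, 66.3% in 490 that decreased and 60.1% in all tested.

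With the trend of each library on this GC content removed, an alternative added after the data were seen, *Msh4* had a log2 fold change of 1.41 (limma adjusted p = 0.0517) and *Hfm1* of 1.02 (limma adjusted p = 0.0543), so neither was called. *Tex11* went to -0.017 and *Mlh3* to -0.21, while *Msh5* rose in value to 0.99 and was not called. *Msh4*, *Hfm1*, *Ccnb1ip1* and *Msh5* kept positive values. Over the 10475 genes tested, 238 increased and 418 decreased at the adjusted p with this trend removed. The part of GC content in the differences was not tested further.

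**Figure D5:**
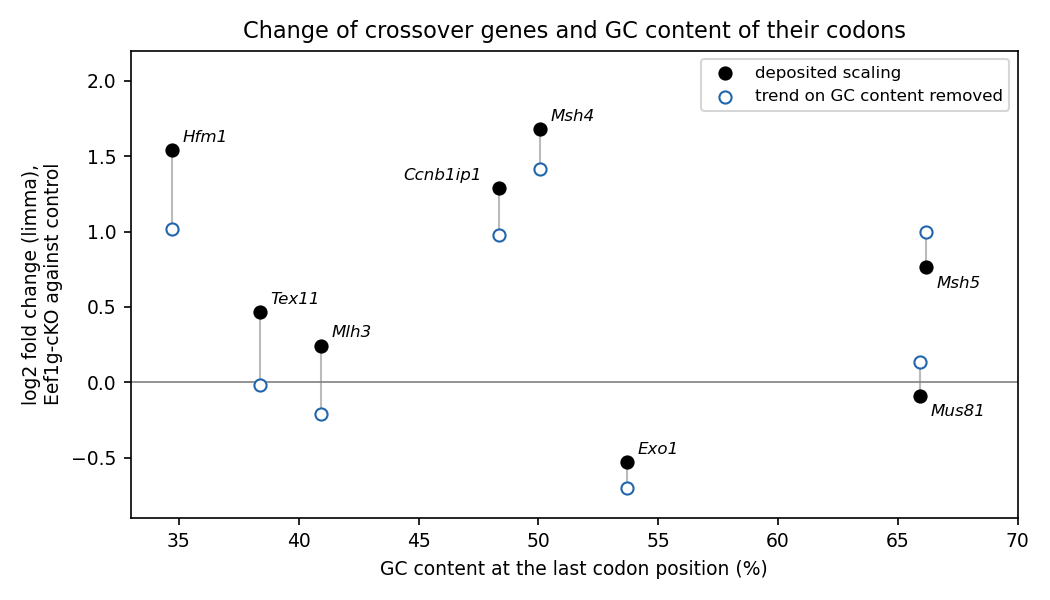
Log2 fold change of each crossover gene in *Eef1g*-cKO against control (limma, y axis) by the GC content at the last base of its codons (%, x axis), as deposited (black) and with the trend on GC content removed (open circles), joined by gray lines. Genes of low GC content move down, *Hfm1* from 1.54 to 1.02, and *Msh5* and *Mus81* move up.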

How the data were processed

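RPF libraries of 2 control and 2 *Eef1g*-cKO samples were read from 1 table of 11598 genes, all with at least 10 reads over the 4 libraries. The FPKM values, computed by the authors, are reads per kilobase of gene model per 1000000 reads on genes. Beside them stands a normalized count signal in which the authors divided gene counts by 1 size factor per library. That signal gave whole reads for 100% of values (tolerance 1e-06). The processing notes in the labels name cutadapt, Bowtie, STAR and the builds mm10 and hg38 without roles, and the methods name RiboMiner with default parameters. The counter, annotation and differential test are not named in the sources used here. The study reported 502 genes with increased and 451 with decreased RPFs. It gives the threshold as p under 0.05 with a log2 fold change beyond 1, without calling p adjusted. DESeq2 gave the same counts here at the adjusted p, and 766 and 958 at the unadjusted p. Columns of the authors' own comparison (fold change, error, statistic, p-values) were not used. Symbols were matched to RefSeq on GRCm38.p6 (10966 current, 599 older, 33 unmatched).

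The main test was chosen for FPKM, the scale the table is named for, so limma 3.58.1 (R 4.3.3, trended prior) was fitted to log2(FPKM + 1). It covered 10475 genes whose mean FPKM reached 1 or more, with Benjamini-Hochberg adjustment over all of them, two-sided. The fit gives all libraries equal weight despite their unequal depth. For *Msh4*, 1 read is 1.20 and 0.661 FPKM in *Eef1g*-cKO and 0.109 and 0.195 FPKM in the controls. The pseudocount understates changes of low genes. edgeR 4.0.16 (quasi-likelihood) and DESeq2 1.42.0 on the recovered reads were alternatives, beside other pseudocounts, filters, scalings, priors, left-out libraries and a replicate block. Coding sequences were the longest per gene in GENCODE release M21. Named genes were all crossover genes with a row, their partners, *Eef1g*, in other pathway lists each called gene and the highest and lowest value, in marker lists markers at 0 and the most abundant gene, and the 3 genes nearest to *Msh4* and to *Msh5*. *Cdk2*, *Stra8*, *Hspa2*, *Piwil1*, *Tbpl1*, *Wt1*, *Clu*, *Hormad1*, *Dmc1* and *Meiob* were named after their values were seen. Some genes of the pathway lists are not reported here and were left out of their lists. Members and lists were chosen with earlier results of these data known. The design text calls the replicates independent, but their animals are not named, so p-values measure the spread between these libraries, and intervals on reads cover counting error only, since molecular identifiers are not mentioned.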

Additional observations from a re-analysis of the deposited data

How the results depend on the processing

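The number of crossover genes increased at the adjusted p, 2 in limma, was 0 with a pseudocount of 0.1 FPKM, 0 with a prior variance without a trend and 0 with the GC trend removed, 3 in edgeR, and 0 to 3 when 1 library was left out. At the unadjusted p it was 3, with 2 to 3 under all alternatives. The median log2 fold change of the 8 genes, 0.61, ranged from 0.53 to 0.86 over 16 alternatives. *Msh4* and *Hfm1* were positive in all 16 and called in 11 each (adjusted p 0.000144 to 0.253 and 2.63e-06 to 0.272), and *Ccnb1ip1* was called in 3. Signs turned for *Tex11* (-0.017) and *Mlh3* (-0.21) with the GC trend removed, and for *Mus81* with centred libraries (0.13), edgeR without a filter (0.23), DESeq2 (0.18), the GC trend removed (0.13) and with 1 library left out (-0.66 to 0.48, the highest without *Eef1g*-cKO replicate 1).

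Over all genes, 301 increased and 521 decreased at the adjusted p. These counts were 29 and 47 with a pseudocount of 0.1 FPKM, 521 and 383 with libraries centred on their medians, 0 and 0 in limma without a trend in the prior (793 and 1811 at the unadjusted p), 705 and 904 in edgeR, 689 and 876 in edgeR without a filter, 502 and 451 in DESeq2, and 0 to 566 and 0 to 1471 with 1 library left out. At the unadjusted p the counts of 767 and 1705 became 496 and 1001 with a pseudocount of 5 FPKM, 1157 and 1346 with centred libraries, 678 and 1064 with a minimum mean of 5 FPKM, 766 and 958 in DESeq2, and 501 to 1003 and 724 to 2290 with 1 library left out. Centring moved the median of all genes from -0.23 to -0.02. Replicate numbers did not pair the libraries (correlation of same-numbered deviations -0.00804 over 10475 genes). A replicate block gave 424 increased and 822 decreased genes at the adjusted p and left the count of crossover genes at 2. Depth limits the low genes most, since the median gene had 5 and 8 reads in *Eef1g*-cKO and 60 and 34 in control. The causes of these shifts were not tested.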
